A study of Mus musculus with 10 samples.

Results

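Cyclic nucleotide phosphodiesterases, the enzymes that break down the second messengers cAMP and cGMP, were followed by 10 genes in the mouse preoptic region: Pde1a, Pde1b, Pde1c, Pde2a, Pde4a, Pde4b, Pde4d, Pde7b, Pde8b and Pde10a. Members were all probe sets whose annotation names exactly 1 gene and that gene is on this list, which gave 31 of 45037 probe sets once the array's controls were set aside (10 of 18193 genes). The tested mice were labelled mPGES-1 KO (lacking microsomal prostaglandin E synthase-1, encoded by Ptges, through which inflammation raises prostaglandin E2) and the others WT, with 5 mice and 5 arrays in each group. All mice had the DBA1/lacJ strain background and all were injected intraperitoneally with LPS (lipopolysaccharide, an outer membrane component of bacteria) at 120 µg/kg, with brains taken 5 h later, so the effect of LPS itself was not measured. The preoptic region, the hypothalamic area in which prostaglandin E2 starts fever, was cut out by laser capture, and its RNA was amplified in 2 rounds before hybridisation. The labels give neither the age of the mice nor the part of Ptges that was deleted.

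As background, receptors that raise or lower cAMP act through adenylyl cyclases, cAMP then activates protein kinase A and the Epac exchange factors, and phosphodiesterases end the signal. Prostaglandin E2 receptors couple to this pathway in both directions. The families differ in substrate and control: PDE1 enzymes are activated by calcium and calmodulin and PDE2A by cGMP, both hydrolyse cAMP and cGMP, PDE4, PDE7 and PDE8 are specific for cAMP, and PDE10A accepts both and is abundant in the projection neurons of the striatum, which lies close to the preoptic region.

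The signal of each member is the deposited probe set intensity on a linear scale, and precision is limited by having 5 arrays per label. Differences are labelled KO minus labelled WT on the log2(intensity + 16) scale, which understates changes of dim probe sets. The test was limma with Benjamini-Hochberg adjustment over 27022 probe sets, after the dimmest 40% were left out. Of the 31 member probe sets, 18 were bright enough to be tested, and they covered 9 of the 10 genes, since the only Pde4a probe set was too dim. Poly-A spike-in RNAs gave signal on 7 arrays and none on KO replicate 3, WT replicate 2 and WT replicate 5, and these 3 arrays are named where they touch a result. The targeted gene Ptges was not lower under the KO label. Its probe set 1439747_at gave intensities of 76.1, 17.5, 56.2, 67.8 and 32.2 in KO replicates 1 to 5, against 5.29, 2.22, 9.33, 4.35 and 1.51 in WT replicates 1 to 5 (exact permutation p = 0.0079, two-sided, which is the lowest value possible with 5 arrays per label, and 0.024 adjusted over 3 probe sets). The other 2 Ptges probe sets were less separated. Probe set 1449449_at averaged 40.2 ± 21.5 in arrays labelled KO and 13.4 ± 13.6 in arrays labelled WT (SD, n = 5 each, exact permutation p = 0.071), and 1449450_at 37.3 ± 15.9 in arrays labelled KO and 30.7 ± 19.7 in arrays labelled WT (SD, n = 5 each, exact permutation p = 0.548). Because the transcript does not show the labelled loss, groups are named by their labels, and every direction rests on those labels. The preoptic neuron list had 11 of 14 genes on the array, all bright enough to be tested, with summed intensities of 2738 to 3814 in arrays labelled KO and 2621 to 3098 in arrays labelled WT, the largest share from the galanin gene Gal.

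None of the member probe sets passed limma's threshold of an adjusted p below 0.05, and neither did any other probe set (0 of 27022, background 0%). At an unadjusted p below 0.05, 3 of the 18 tested member probe sets were higher under the KO label, against 5.47% of all tested probe sets, and 0 were lower, against 9.77%. These 3 belonged to 2 genes, Pde10a with 2 probe sets and Pde8b with 1. Within the 7 arrays with spike-in signal 1 was higher (Pde10a 1439618_at) and 1 lower (Pde2a 1447707_s_at), and with median centring 5 were higher and 0 lower. In 0 of the 18 did the arrays of one label lie wholly above those of the other, against 4.07% of all tested probe sets. The difference was above 0 in 15 of 18 member probe sets and in 41.3% of all tested, and the median was 0.17 for members and -0.08 for all. Several probe sets share a gene, so the 18 are not independent. With 1 probe set per gene the difference was above 0 in 7 of 9 member genes and in 49.1% of all tested. The members were chosen with earlier results of these arrays known, so their direction and counts are no independent evidence. Of 7 tested phosphodiesterase genes outside the member list, 1 was higher and 6 were lower, so the direction does not hold for the whole family. The median intensity of an array as deposited was 24.6 to 29.8 under the KO label and 32.0 to 44.8 under the WT label, with no overlap. Array-wide scale and label therefore cannot be told apart here. Centring arrays on their medians moved the median of all tested probe sets to 0.20. The count of member probe sets above 0 was then 18 of 18 (71.5% of all), and without WT replicate 1, uncentred, it was 11 of 19.

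**Figure D1:**
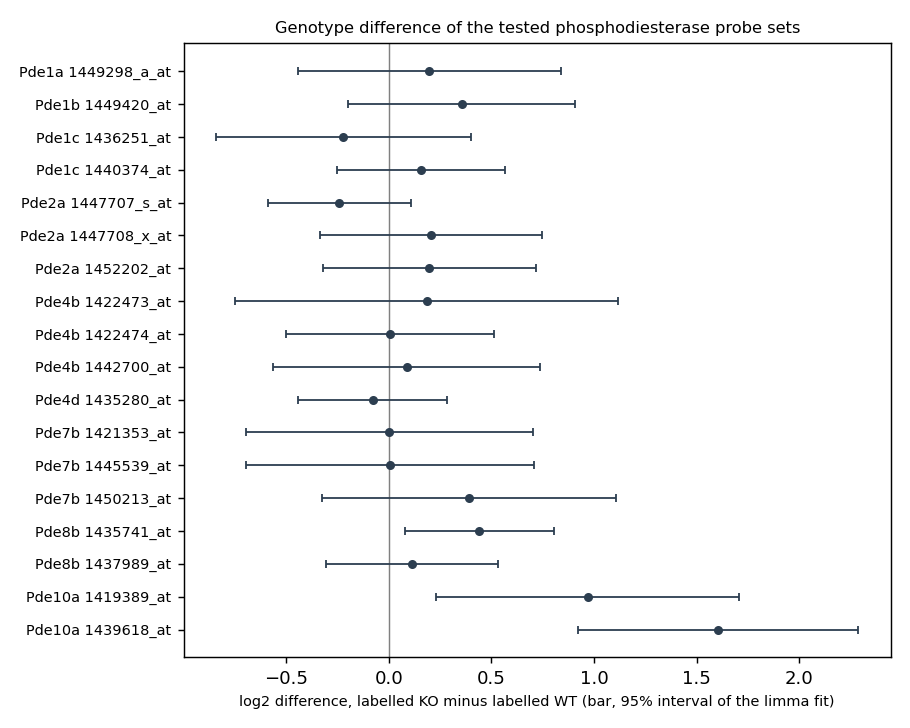
Log2 difference (labelled KO minus labelled WT, log2(intensity + 16) scale) of the 18 tested phosphodiesterase probe sets, with points for the limma estimate and bars for its 95% interval. The intervals of Pde10a 1439618_at, Pde10a 1419389_at and Pde8b 1435741_at lie above 0 before adjustment, and the other 15 include 0.

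Pde10a, which encodes the phosphodiesterase abundant in striatal projection neurons, had the largest difference of the 18 tested member probe sets. Probe set 1439618_at gave intensities of 529, 1038, 938, 276.5 and 506 in KO replicates 1 to 5, against 206, 221, 306, 94.8 and 155 in WT replicates 1 to 5. KO replicate 4 lay below WT replicate 3, and the other 4 arrays labelled KO lay above every array labelled WT. The mean was 657 ± 319 in arrays labelled KO and 197 ± 78.6 in arrays labelled WT (SD, n = 5 each), a 3.04-fold difference (log2 1.60, SE 0.32, 95% interval 0.92 to 2.29) with a limma adjusted p of 0.079, so it did not pass. Its unadjusted p ranked 40 of 27022. With fewer cells of a type in a piece of tissue, a bulk signal is lower just as with less RNA per cell, and these cannot be told apart here.

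The second tested Pde10a probe set, 1419389_at, ran the same way at a lower brightness. It gave 141, 79.3, 175, 76.3 and 95.1 in KO replicates 1 to 5, against 62.0, 51.6, 98.2, 7.65 and 55.8 in WT replicates 1 to 5. WT replicate 3 lay above 3 arrays labelled KO, so the groups overlapped. The difference was 0.97 (SE 0.35, 95% interval 0.23 to 1.71, limma adjusted p = 0.203), and 0.61 without WT replicate 4, the array at 7.65. The remaining 3 Pde10a probe sets were below the filter and did not share a direction: 1419390_at averaged 6.82 in arrays labelled KO and 15.1 in arrays labelled WT (difference -0.42). Probe set 1432490_a_at averaged 16.7 under the KO label and 11.7 under the WT label, and 1458499_at averaged 16.7 and 14.1 in the same order, with SDs of 11.8 to 18.1.

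**Figure D2:**
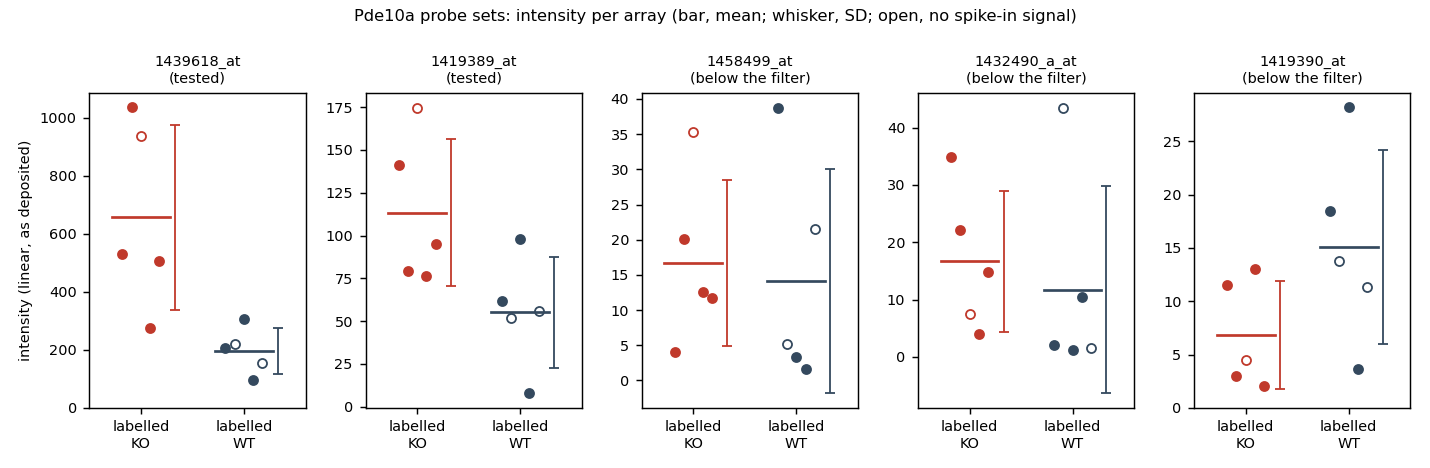
Intensity (linear scale, separate axis for each panel) of the 5 Pde10a probe sets, arrays labelled KO left of arrays labelled WT, with points for arrays, bars for means, whiskers for SD and open points for the 3 arrays without spike-in signal. In 1439618_at all but 1 of the arrays labelled KO lie above 306, the highest WT value.

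The Pde10a difference kept its direction under all 23 other settings tried, and its call did not settle. With median centring the limma adjusted p was 0.023 at a difference of 1.88. Within the 7 arrays with spike-in signal, 4 labelled KO and 3 labelled WT, the difference was 1.45 (limma adjusted p = 0.259). Within the 3 arrays without it, where the lone array labelled KO is assumed to vary like the other 2, the difference was 2.25 (limma adjusted p = 0.012). Leaving out each array in turn gave differences of 1.39 to 1.87 and limma adjusted p of 0.054 to 0.210.

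**Figure D3:**
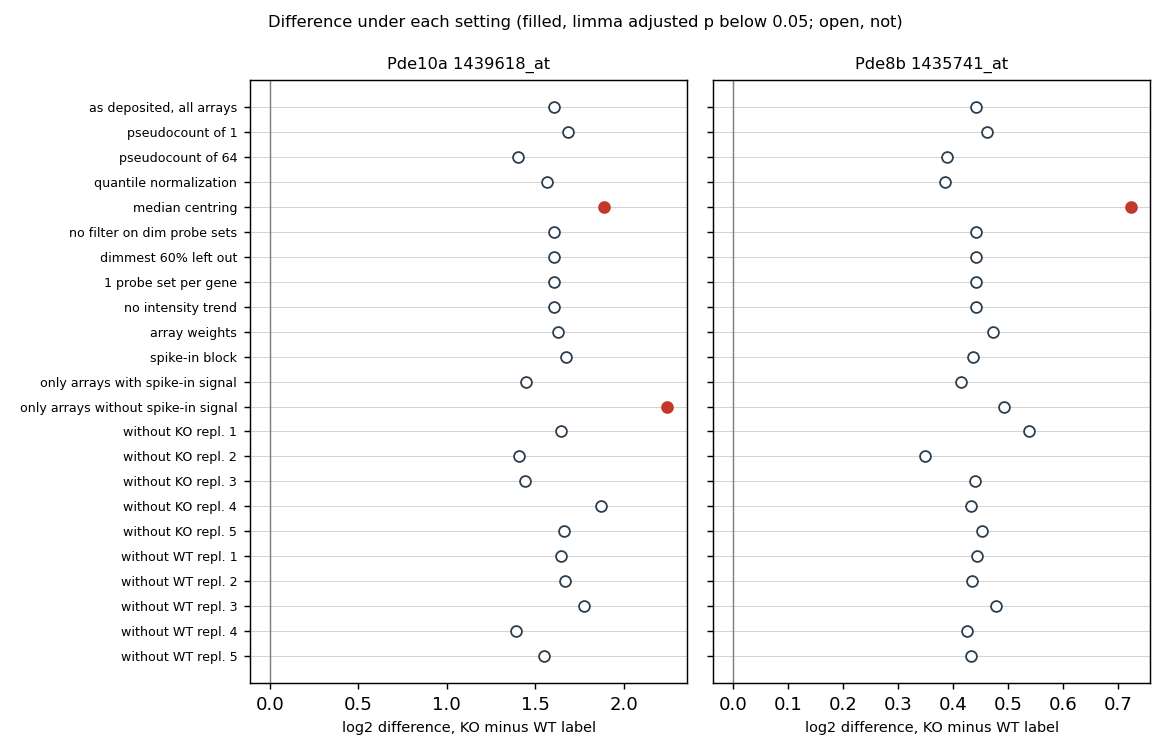
Log2 difference (labelled KO minus labelled WT) of Pde10a 1439618_at and Pde8b 1435741_at under each setting that kept arrays unpaired, 1 per row, filled where the limma adjusted p was below 0.05. All points lie above 0, Pde8b is filled with median centring, and Pde10a is filled there and within the 3 arrays without spike-in signal.

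Promoter sequence is shown for Pde10a, because it had the largest difference, and for Pde4b, because PDE4 genes are known cAMP targets. Windows are the 250 bases before RefSeq transcript starts (GRCm38.p6), 5′ to 3′ on the gene's strand. All 10 genes matched, with 31 windows in all. The search covered both strands for the cAMP response element TGACGTCA, its core TGACG (contained in the full element) and the GC box GGGCGG. Capitals mark matches to the core or the GC box, and a match on the opposite strand shows the complement reversed. The first Pde10a window is chr17:8801495-8801744, the second chr17:8849735-8849984 and the Pde4b window chr4:102421305-102421554, all on the plus strand. Both Pde10a windows are shown, and of the 4 Pde4b windows the 1 with a core match, the other 3 having no match to the core or the GC box.
Pde10a first window: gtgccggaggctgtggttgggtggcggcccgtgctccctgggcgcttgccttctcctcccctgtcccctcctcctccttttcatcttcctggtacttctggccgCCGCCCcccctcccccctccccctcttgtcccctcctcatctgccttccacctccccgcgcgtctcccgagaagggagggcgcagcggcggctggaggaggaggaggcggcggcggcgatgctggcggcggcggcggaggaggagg
Pde10a second window: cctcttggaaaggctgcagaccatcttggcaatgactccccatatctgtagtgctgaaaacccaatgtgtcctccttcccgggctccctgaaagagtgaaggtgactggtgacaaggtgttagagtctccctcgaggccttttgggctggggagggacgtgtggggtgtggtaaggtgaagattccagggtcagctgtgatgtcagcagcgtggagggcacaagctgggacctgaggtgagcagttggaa
Pde4b window with the core: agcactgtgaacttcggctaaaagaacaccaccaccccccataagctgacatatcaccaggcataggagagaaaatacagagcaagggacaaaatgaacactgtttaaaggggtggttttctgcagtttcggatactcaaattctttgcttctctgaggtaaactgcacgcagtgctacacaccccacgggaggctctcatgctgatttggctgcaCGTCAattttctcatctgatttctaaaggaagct
The full element was in 0 of the 31 member windows, against 1.55% of all 32851 windows. The core was in 3 member windows, 1 each of Pde1a, Pde4a and Pde4b, against 17.8% of all windows, and the Pde4b match starts 34 bases before the transcript start. The GC box was in 7 member windows, from 5 genes, against 32.7% of all windows. The Pde8b windows among them overlap and hold the same 4 matches, so the 7 are not all separate. In Pde10a the GC box appears in the first window, 146 bases before the start, and not in the second. A match is a description of letters, not of a bound site, and the deposited values do not say which transcript start was in use.

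Pde8b, which encodes a cAMP-specific enzyme of high affinity, had the next smallest unadjusted p among the other genes. Probe set 1435741_at gave 285, 492, 380.4, 388 and 366 in KO replicates 1 to 5, against 274, 266, 302, 259 and 265 in WT replicates 1 to 5. Only KO replicate 1 fell within the WT range, and the arrays labelled WT lay close together. The mean was 382 ± 73.8 in arrays labelled KO and 273 ± 17.0 in arrays labelled WT (SD, n = 5 each), with a difference of 0.44 (SE 0.17, limma adjusted p = 0.236). The other Pde8b probe set, 1437989_at, was nearly as bright and gave a difference of 0.11 (SE 0.20, 95% interval -0.31 to 0.53), with 178 to 344 in arrays labelled KO and 188 to 305 in arrays labelled WT. The first probe set alone passed with median centring, at 0.72 (limma adjusted p = 0.048).

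Pde7b, another cAMP-specific enzyme gene with known expression in striatum, had 3 tested probe sets. Its brightest probe set, 1445539_at, gave 421, 274, 464, 163 and 89.8 in KO replicates 1 to 5, against 236, 271, 165, 269 and 286 in WT replicates 1 to 5. Arrays labelled KO held both the 2 highest values and the 2 lowest, and the log2 SD was 0.91 under the KO label and 0.30 under the WT label. The difference was 0.0060 (95% interval -0.69 to 0.71). The dimmer 1450213_at was at 0.39 (SE 0.34) and 1421353_at at 0.0031 (SE 0.33). Their log2 SDs ran the other way, at 0.41 and 0.32 under the KO label and 0.72 and 0.69 under the WT label, and no test of spread was run.

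Among the calcium- and calmodulin-activated genes, Pde1b came nearest to a difference. Probe set 1449420_at gave 246, 223, 275, 90.04 and 153 in KO replicates 1 to 5, against 156, 185, 157, 106 and 113 in WT replicates 1 to 5. The 3 highest arrays were labelled KO and so was the lowest. The difference was 0.36 (SE 0.26, limma adjusted p = 0.541), and it was 0.59 without KO replicate 4 and 0.22 without KO replicate 3. Pde1c 1440374_at averaged 280 ± 66.3 in arrays labelled KO and 246 ± 40.9 in arrays labelled WT (SD, n = 5 each), a difference of 0.16 (SE 0.19), while the dim 1436251_at of the same gene was at -0.22 (SE 0.29), turning to 0.038 with quantile normalization and 0.060 with median centring. Its other 4 probe sets were below the filter. Pde1a 1449298_a_at ranged over 26.7 to 117 in arrays labelled KO and 22.0 to 62.1 in arrays labelled WT, with KO replicate 3 the highest, and its difference was 0.20 (SE 0.30). The Pde1a difference was -0.036 without KO replicate 3, 0.030 without WT replicate 3 and 0.37 without KO replicate 1.

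Pde2a, the cGMP-stimulated enzyme gene, had the brightest probe set of the group, and its probe sets were on different sides of 0. Probe set 1447707_s_at gave 14234, 11950, 18809, 11139 and 10880.0 in KO replicates 1 to 5, against 14400.0, 18565, 15479, 18339 and 11750.0 in WT replicates 1 to 5. Its difference was -0.24 (SE 0.17, limma adjusted p = 0.513), but it was 0.11 with quantile normalization and 0.040 with median centring, so no direction can be given. It was -0.42 within the 7 arrays with spike-in signal (limma adjusted p = 0.309), 0.35 within the 3 without, and -0.37 without KO replicate 3. The probe sets 1447708_x_at and 1452202_at were at 0.21 (SE 0.26) and 0.20 (SE 0.25), with mean intensities of 118 and 90.1 in arrays labelled KO and 97.2 and 74.4 in arrays labelled WT. By the array's naming, the ending _s_at marks probes shared by several transcripts and _x_at probes that can cross-hybridise.

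The PDE4 genes, which encode the cAMP-specific enzymes blocked by rolipram and prominent in immune cells and brain, showed no difference by label that exceeded the spread between mice. Pde4b 1422474_at gave 3861, 2001, 2665, 2034 and 2187 in KO replicates 1 to 5, against 1428, 3814, 2520.1, 1999 and 3280 in WT replicates 1 to 5. Both labels covered much the same range, and the difference was 0.0048 (SE 0.24), with a 95% interval of -0.50 to 0.51. A difference of Pde4b in either direction up to that size is therefore not shown or excluded by these arrays. Its dimmer tested probe sets 1422473_at and 1442700_at were at 0.18 (SE 0.44) and 0.087 (SE 0.31), and 3 more were below the filter.

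Pde4d 1435280_at gave intensities within a narrower range. They were 461, 475, 601, 414 and 558 in KO replicates 1 to 5, against 599, 591, 609.6, 423 and 440.1 in WT replicates 1 to 5. The difference was -0.078 (SE 0.17, 95% interval -0.44 to 0.29), and 0.20 with median centring. Pde4a 1421535_a_at was too dim for the test, at 11.3 ± 13.2 in arrays labelled KO and 20.8 ± 14.6 in arrays labelled WT (SD, n = 5 each). All 13 probe sets below the filter had mean intensities of 1.25 to 16.7 under the KO label and 1.77 to 29.4 under the WT label, and their differences ran between -0.44 and 0.34.

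**Figure D4:**
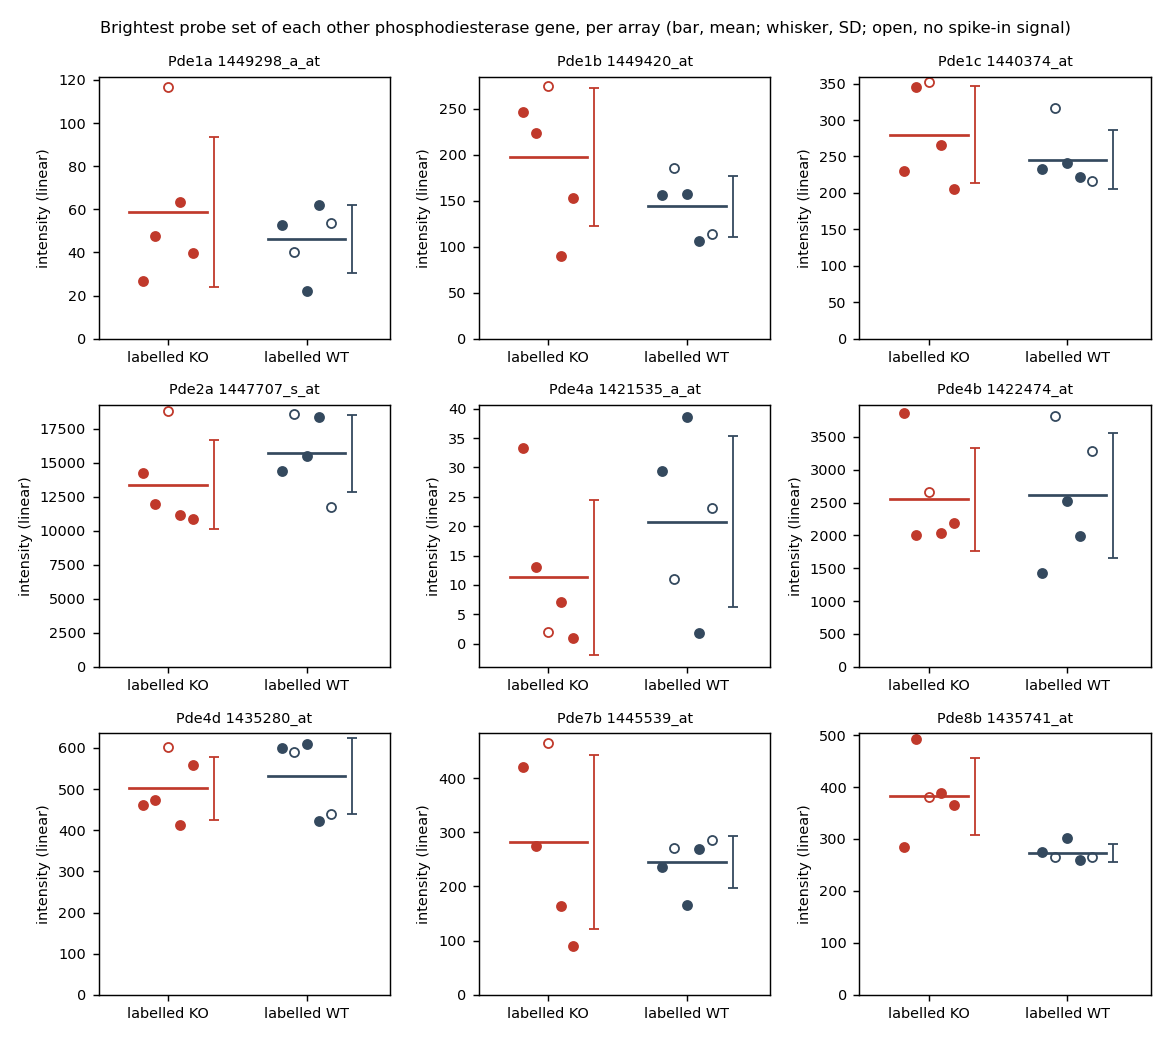
Intensity (linear scale, separate axis for each panel) of the brightest probe set of the 9 other genes, arrays labelled KO left of arrays labelled WT, with points for arrays, bars for means, whiskers for SD and open points for the 3 arrays without spike-in signal. The labels overlap in every panel, and Pde8b shows the arrays labelled WT close together between 259 and 302.

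By brightness of the best probe set over all 10 arrays, the genes ran in the order Pde2a, Pde4b, Pde4d, Pde10a, Pde8b, Pde1c, Pde7b, Pde1b, Pde1a and Pde4a, at percentiles of 99.5, 96.8, 88.6, 85.0, 84.6, 82.5, 81.8, 77.4, 60.4 and 31.9 of all probe sets. The place of Pde10a depended on the label, since its mean log2 signal was 9.25 under the KO label, above Pde4d, and 7.64 under the WT label, below Pde8b at 8.18, Pde1c at 8.02 and Pde7b at 8.01. This is an order of signals, not of transcripts, because probe sets differ in response and no length correction applies to them. Within a gene the choice of probe set mattered as much: the Pde2a probe sets stood at percentiles of 99.5, 71.6 and 68.2, and those of Pde4b between 0.258 and 96.8. Pde10a at 276.5 to 1038 in arrays labelled KO overlapped its neighbours Pde4d (414 to 601) and Pde8b (285 to 492). In arrays labelled WT the ranges were 94.8 to 306 for Pde10a, 423 to 609.6 for Pde4d and 259 to 302 for Pde8b.

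Across arrays, with label means removed, Pde10a 1439618_at was set against the brightest probe set of each other gene, the second Pde10a probe set and the summed striatal markers, 11 relations over 10 arrays. With Pde1b 1449420_at Pearson r was 0.83 (permutation p = 0.0024, adjusted over 11 relations 0.027) and Spearman rho 0.76 (permutation p = 0.014, adjusted 0.082). The permutations shuffled values across both labels and did not allow for the label means removed, so their p-values are somewhat too small. Whether the Pde1b relation passes after adjustment is therefore not settled. Without the 2 arrays farthest from the median, KO replicate 4 and WT replicate 4, r was 0.58 (exact permutation p = 0.141, 8 arrays), which means that these 2 arrays carry part of the relation. Among the 7 arrays that had spike-in signal r was 0.796. None of the other 10 relations passed after adjustment (Pearson r between -0.12 and 0.72, permutation p adjusted 0.117 or more). Leaving out the same 2 arrays moved them both ways. The second Pde10a probe set was at r = 0.65 (permutation p = 0.041, adjusted 0.117) and at 0.21 without them, and Pde4d was at 0.72 and at 0.43 without them. Pde8b was at 0.46 and at 0.74 without them, and Pde1c at 0.58 and at 0.77 without them (exact permutation p = 0.0081 and 0.032 over 8 arrays, not adjusted). The 5 genes most like Pde10a among 13489 by Pearson r over the 10 arrays, given as a description, were Lmo7 (0.96), Nlk (0.94), Gda (0.91), Atxn2 (0.90) and Myt1l (0.90), with differences of 1.22, 0.44, 0.44, -0.21 and 0.46, and Atxn2 turned to 0.074 with median centring.

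A list of striatal projection neuron markers was set beside Pde10a. Of 16 listed genes 14 were on the array and 11 tested, 9 higher and 2 lower under the KO label. Of these, 0 passed limma's threshold and 5 were higher at an unadjusted p below 0.05, against 5.47% of all tested probe sets. The median difference was 0.43, against -0.08 over all tested probe sets. With 1 probe set per gene, as in this list, the median of all was -0.0073 and 49.1% were higher. The list was drawn up with earlier results of these arrays known, so its direction is no independent evidence. The summed intensity was 9614, 7411, 10944, 3277 and 4988 in KO replicates 1 to 5, against 4433, 4116, 3615, 3512 and 4047 in WT replicates 1 to 5. KO replicate 4 had the lowest sum of all arrays and the lowest Pde10a among arrays labelled KO, at 276.5, where arrays labelled WT ranged from 94.8 to 306. Over 10 arrays with label means removed, the log2 sum and Pde10a gave r = 0.64 (permutation p = 0.043, adjusted 0.117) and rho = 0.59 (permutation p = 0.079, adjusted 0.210), and r = 0.26 without KO replicate 4 and WT replicate 4. Tac1, which encodes the substance P precursor, differed by 1.42 (SE 0.22, limma adjusted p = 0.074). Drd1, for the dopamine D1 receptor, differed by 1.24 (SE 0.43, limma adjusted p = 0.194). Drd2 and Ppp1r1b, also on the striatal list, were below the filter, at 21.2 and 14.8 in arrays labelled KO and 16.5 and 5.51 in arrays labelled WT. Adora2a was not analysed here. The part of these markers in the Pde10a difference was not tested.

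**Figure D5:**
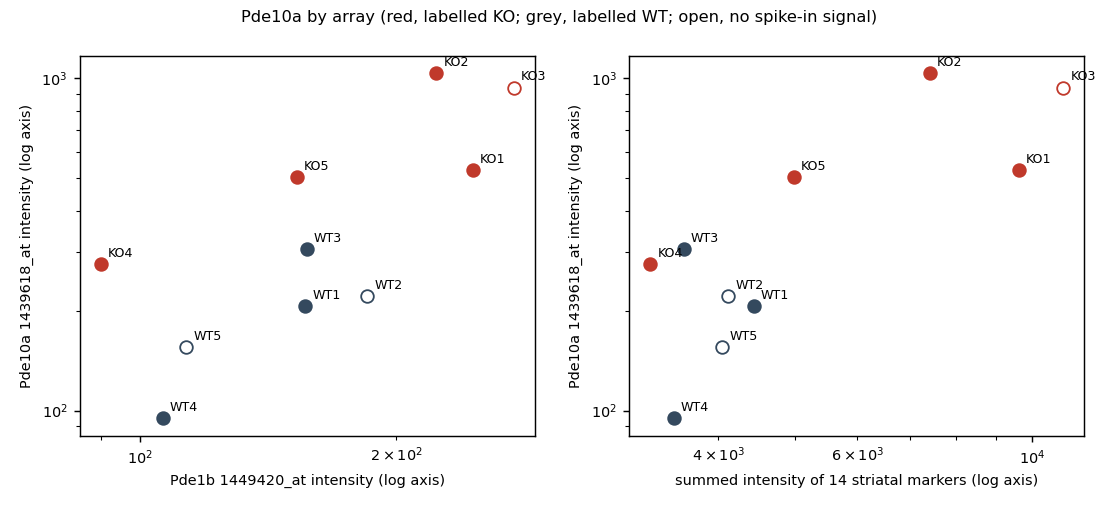
Intensity of Pde10a 1439618_at (vertical, log axis) on each array against Pde1b 1449420_at (left, log axis) and against the summed intensity of 14 striatal markers (right, log axis), red for arrays labelled KO, grey for arrays labelled WT and open for no spike-in signal. Arrays with more Pde1b tend to have more Pde10a within each label, and the summed markers of KO replicates 1, 2 and 3 are at 7411 or more.

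No marker of another cell type passed limma's threshold. Of 7 tested microglial markers 2 were higher and 5 lower under the KO label, and of 9 tested endothelial and mural markers 2 were higher and 7 lower. Over all tested probe sets 41.3% were higher, and 49.1% with 1 probe set per gene, as in these lists. The summed microglial intensity was 4840 to 7035 in arrays labelled KO and 6784 to 10455 in arrays labelled WT. Most of that sum was 1 gene, Csf1r, the receptor of a macrophage growth factor. Its means were 5282 in arrays labelled KO and 7973 in arrays labelled WT, a difference of -0.58 (SE 0.15). Also lower were Cx3cr1 at -0.65 (SE 0.36), C1qb at -0.34 (SE 0.24), Aif1 at -0.27 (SE 0.42) and C1qa at -0.16 (SE 0.24). The 2 higher markers were P2ry12 at 0.39 (SE 0.31) and Tmem119 at 0.36 (SE 0.37). The choroid plexus list stood out in KO replicate 3 through Ttr, the transthyretin gene, alone, at 6162, against 75.5 to 326 in the other arrays labelled KO and 195 to 446 in arrays labelled WT. Clic6 of the same list was at 275 in KO replicate 3 and at 219 to 510.2 in the other arrays labelled KO. KO replicate 3 also had the highest Pde1a, Pde1b, Pde1c, Pde2a and Pde7b signal of all arrays by the brightest probe sets. The part of these genes in any member's value was not tested.

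Most of the other phosphodiesterase genes tested lay below 0, as did most of all tested probe sets. Of 14 listed, 13 were on the array and 7 tested, 1 higher and 6 lower under the KO label. Of these, 0 passed limma's threshold and 2 were lower at an unadjusted p below 0.05, and the median difference was -0.17. Over all tested probe sets 58.7% were lower, and 9.77% were lower at that unadjusted p. With 1 probe set per gene, as in this list, 49.1% of all were higher. With median centring Pde9a, Pde6d and Pde3b turned to 0.11, 0.18 and 0.19, so the direction of these genes depends on scaling. Pde6h, the inhibitory subunit gene of the cone photoreceptor enzyme, gave 21.9, 14.3, 17.7, 3.88 and 22.9 in KO replicates 1 to 5, against 65.6, 69.7, 47.3, 52.9 and 41.1 in WT replicates 1 to 5. The labels did not overlap, at a dim signal, and the difference was -1.17 (SE 0.26, limma adjusted p = 0.087). Pde7a, the paralogue of Pde7b, was at -0.52 (SE 0.18, limma adjusted p = 0.191), with 308 to 536 in arrays labelled KO and 476 to 739.7 in arrays labelled WT. Pde6g was at -0.65 (SE 0.38), Pde9a at -0.17 (SE 0.21), Pde6d at -0.10 (SE 0.17) and Pde3b at -0.089 (SE 0.18).

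Genes that make or read cyclic nucleotides were split by sign. Of 34 listed genes 33 were on the array and 29 tested, 15 higher and 14 lower under the KO label, with a median difference of 0.013. Of these, 0 passed limma's threshold, and 4 were higher and 3 lower at an unadjusted p below 0.05. The shares over all tested probe sets were 5.47% higher and 9.77% lower. Gucy1b1, a subunit of the nitric oxide-activated enzyme that makes cGMP, was at 0.72 (SE 0.21, limma adjusted p = 0.130), with 375 ± 85.2 in arrays labelled KO and 222 ± 55.6 in arrays labelled WT (SD, n = 5 each). Creb1, the cAMP-responsive transcription factor gene, averaged 585 ± 46.6 in arrays labelled KO and 415 ± 49.7 in arrays labelled WT (SD, n = 5 each) with no overlap, and was at 0.49 (SE 0.15, limma adjusted p = 0.158). Rapgef3, which encodes the cAMP sensor Epac1, was at -0.62 (SE 0.18, limma adjusted p = 0.129), with 1428 ± 373 in arrays labelled KO and 2158 ± 303 in arrays labelled WT (SD, n = 5 each). The protein kinase A genes had different signs, Prkar2b, a regulatory subunit, at 0.45 (SE 0.16) and Prkaca, a catalytic subunit, at -0.49 (SE 0.20). Prkacb, also a catalytic subunit, had the opposite sign to Prkaca, at 0.33 (SE 0.20). Prkacb averaged 1169 in arrays labelled KO and 951 in arrays labelled WT, and Prkaca 92.6 and 136 in the same order. Gnas, the stimulatory G protein gene, was at -0.27 (SE 0.11) and turned to 0.031 with quantile normalization. Gucy1b1, Creb1 and Prkar2b passed limma's threshold with median centring alone (adjusted p of 0.028, 0.028 and 0.042).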

How the data were processed

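RNA of laser-captured preoptic region from 10 mice was measured on 10 arrays. The deposited values, per the labels, are linear probe set intensities from GCOS, which the submitters' processing notes name (version and settings not given in the sources used here), and the authors had scaled each array to a trimmed mean of 200 (2% left out at each end). Probe sets were named by the platform annotation, where 34945 of 45101 name 1 gene, 932 several and 9160 none, and 34741 matched RefSeq by Entrez ID.

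Values were tested as log2(intensity + 16) in limma (lmFit, eBayes with intensity trend; version 3.58.1, R 4.3.3), with label as the only term, over the probe sets above the dimmest 40% (mean log2 value of 5.09). Python 3.11.15 with pandas 2.3.3, numpy 2.4.6, scipy 1.17.1 and matplotlib 3.10.9 did the rest. Permutation tests of relations drew 100000 resamples, shuffled across both labels without allowing for the label means removed, so their p-values are somewhat too small. Members and lists were chosen with earlier results of these data known. The text covers every member probe set and names up to 6 genes for each pathway list by smallest p, the 5 genes most like the leading member, 4 striatal markers and Ptges. It also names Prkacb and some markers of other cell types. Marker lists of astrocytes and oligodendrocytes had medians of -0.0090 and -0.0053 with 0 genes past the threshold. The astrocyte median hides genes on both sides, as 3 were higher and 3 lower. Gfap was at -0.73 (SE 0.16, limma adjusted p = 0.087), with 3889 to 6207 in arrays labelled KO and 6563 to 10308 in arrays labelled WT. Gja1 was at 0.46 (SE 0.20, limma adjusted p = 0.295). In simulated data of 27022 probe sets, 5 against 5 arrays, the test recovered 2%, 48%, 70% and 74% of probe sets changed by log2 0.5, 1, 1.5 and 2, with 4.9% false calls. The simulated noise was independent for each probe set, with no effect shared across an array, so these rates need not hold for the deposited values. No pair of arrays shared over 0.0044% of values. Replicates are separate mice, per the labels.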

Additional observations from a re-analysis of the deposited data

Results flagged for a closer look

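Of 62 sets of 5 arrays (31 member probe sets, 2 labels), 5 held an array far from the other 4 by Dixon's ratio of gap to range, and chance flags about 1 in 20. Pde1c 1440374_at in WT replicate 2 was at 317, with the other arrays labelled WT at 216 to 241 (ratio 0.716). Pde4b 1422473_at in KO replicate 4 was at 8.81, with the other arrays labelled KO at 51.9 to 72.0 (ratio 0.795). Pde7b 1421353_at in KO replicate 1 was at 38.3, with the others at 15.1 to 20.5 (ratio 0.711). Below the filter, Pde4b 1447718_at in KO replicate 4 was at 9.03 with the others at 0.294 to 0.960 (ratio 0.907), and Pde4d 1459311_at in WT replicate 4 at 13.2 with the others at 0.553 to 2.09 (ratio 0.844).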

How the results depend on the processing

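The count of probe sets past limma's adjusted p of 0.05 was 0 as deposited, with 4117 at an unadjusted p below 0.05. It was 770 with median centring (751 higher, 19 lower), 8 with 1 probe set per gene, 1 with the replicate block and 60 within the 3 arrays without spike-in signal, 279 at an adjusted p below 0.1, and between 0 and 28 on leaving out each array (28 without WT replicate 5). Member probe sets past the threshold numbered 2 with median centring (Pde10a 1439618_at and Pde8b 1435741_at), and 1 with the replicate block, within the arrays without spike-in signal and at an adjusted p below 0.1 (Pde10a 1439618_at each time). With the replicate block its adjusted p was 0.044, and no other member's call changed. Deviations of same-numbered KO and WT arrays correlated between -0.092 and 0.045, and 1 of 5 numbers matched best with its own, so the numbers were not taken as pairs. Some signs turned, also for differences of -0.22 to -0.27 (Pde1c 1436251_at, Pde2a 1447707_s_at, Gnas), and the cause was not tested. Median intensities of the deposited arrays were 24.6 to 29.8 under the KO label and 32.0 to 44.8 under the WT label, and median centring sets the arrays to a common median. With quantile normalization Pde1c 1436251_at was at 0.038, Pde2a 1447707_s_at at 0.11, Pde4b 1422474_at at -0.012, Pde7b 1445539_at at -0.017 and Gnas at 0.031. With median centring Pde1c 1436251_at was at 0.060, Pde2a 1447707_s_at at 0.040, Pde4d 1435280_at at 0.20, Atxn2 at 0.074, Pde9a at 0.11, Pde6d at 0.18, Pde3b at 0.19 and Gnas at 0.0085. Within the arrays without spike-in signal Pde2a 1447707_s_at was at 0.35, Pde4b at -0.25 (1422473_at), -0.41 (1422474_at) and -0.25 (1442700_at), and Pde4d 1435280_at at 0.23. Within the arrays with it Pde7b was at -0.42 (1421353_at) and -0.088 (1445539_at). With array weights Pde4b 1422474_at was at -0.027 and Pde7b at -0.10 (1421353_at) and -0.18 (1445539_at). Pde7b 1421353_at was at -0.024 with a pseudocount of 64 and -0.13 with the spike-in block, and 1445539_at at -0.0095 with a pseudocount of 1. Leaving out each array gave -0.036 to 0.37 for Pde1a 1449298_a_at, -0.088 to 0.55, -0.19 to 0.16 and -0.12 to 0.25 for Pde4b 1422473_at, 1422474_at and 1442700_at, -0.26 to 0.17 and -0.22 to 0.33 for Pde7b 1421353_at and 1445539_at, and -0.18 to 0.040 for Pde3b. Probe sets below the filter had no test, which leaves Pde4a without one.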

Other observations

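Lmo7, the gene most like Pde10a across arrays, gave 226, 295, 383, 93.5 and 161 in KO replicates 1 to 5, against 86.1, 99.9, 135, 46.2 and 60.8 in WT replicates 1 to 5. As in Pde10a, KO replicate 4 and WT replicate 4 were the lowest of their labels. The difference was 1.22 (SE 0.32, limma adjusted p = 0.104), and the limma adjusted p was 0.028 with median centring. Gda, which encodes guanine deaminase, ran from 905 to 2849 in arrays labelled KO and from 707 to 1368 in arrays labelled WT, with the same 2 arrays lowest. Lmo7 and Gda were picked for their likeness to Pde10a across arrays, so the shared low arrays are no separate evidence.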
